A study of Mus musculus with 3 samples.

Results

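The genes described here are those that let the small intestine use dietary sugar, 8 of the 21983 genes in the count table. They were chosen by symbol: the disaccharidases Lct, Sis, Mgam and Treh, the sugar transporters Slc5a1, Slc2a2 and Slc2a5, and the fructose kinase Khk. All 8 had a row in the table. RNA had been sequenced from the intestine of wild-type mouse pups in 3 groups of 1 library each. The PCI34051+NEC pups were put through a necrotizing enterocolitis (NEC) protocol, which mimics an inflammatory bowel disease of newborns, and were given PCI34051, a selective inhibitor of the deacetylase HDAC8, at 10 mg/kg once a day for 5 days by mouth. The NEC pups went through the same protocol with PBS in its place. The protocol lasted 96 h and joined gavage of 40 µl of 33% Esbilac formula at intervals of 4 h with hypoxia (99.9% nitrogen, 100 s) and cold (4 °C, 10 min) at intervals of 12 h. Control pups stayed with the dam, met neither stress and also received PBS. Diet therefore differs between control pups, which had milk, and both formula-fed groups, and its part cannot be told apart from those of hypoxia and cold. Neither the segment of intestine, the sex of the pups, nor the number of pups behind each library is given in the labels.

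Lactose, the sugar of milk, is split by lactase on the brush border of enterocytes into glucose and galactose. Sucrase-isomaltase, maltase-glucoamylase and trehalase split sucrose, starch fragments and trehalose. In mice lactase is high during suckling and declines at weaning, when sucrase and trehalase appear, and glucocorticoids are known to bring this switch forward. Glucose and galactose enter the cell with sodium through SGLT1 (Slc5a1), fructose enters through GLUT5 (Slc2a5), and all of them can leave toward the blood through GLUT2 (Slc2a2). Ketohexokinase (Khk) commits fructose to breakdown.

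The libraries held 16497580 counts (PCI34051+NEC), 10650638 counts (NEC) and 15076413 counts (control). Levels are TMM-normalised CPM, counts scaled to library size, and differences are of log2(CPM + 1), which understates those of low genes. Intervals are exact 95% intervals and cover counting error only. With 1 library per group there is no replicate check and no p-value, and every statement is about these libraries. The NEC library stood apart from the others. Mitochondrially encoded genes took 3.73% of counts in PCI34051+NEC, 32.4% in NEC and 4.88% in control. The 10 pan-epithelial marker genes summed to 7450 CPM in PCI34051+NEC, 3223 CPM in NEC and 7265 CPM in control. The 10 smooth muscle markers summed to 1703 CPM in PCI34051+NEC, 12934 CPM in NEC and 1863 CPM in control. The Y-linked gene Eif2s3y had 1134, 0 and 999 counts in PCI34051+NEC, NEC and control. If that 0 reflects sex, the part of sex in both comparisons with NEC cannot be told apart from that of the group. In such bulk RNA, fewer enterocytes and less RNA per enterocyte cannot be told apart. The label of intestine fitted abundant Vil1 (983, 492 and 1015 CPM in PCI34051+NEC, NEC and control), which encodes a protein of the microvillus core. The goblet cell mucin Muc2 had 0 counts in every library, so a 0 in this table is reported only as a count.

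The promoters of 4 members are shown because their genes gave the 2-fold differences of NEC from control (Lct, Sis and Slc2a2), or because the gene encodes the enzyme nearest in kind to sucrase (Mgam). Each runs 5′ to 3′ on the gene's strand from 250 bases before the RefSeq start to 50 bases after it (build GRCm38.p6). RefSeq windows were found for all 8 members. Capitals mark matches, on either strand, to 6 short motifs. TTTAT is the core that Cdx factors bind. The zinc finger factors Gata4 to Gata6 are known to bind AGATAA and also TGATAA. The E box reads CACGTG, an Hnf4 site reads CAAAGTCCA, and the glucocorticoid receptor binds paired copies of letters such as AGAACA. The windows lie at chr1:128328269-128328568 (minus strand, Lct), chr3:72967814-72968113 (minus strand, Sis), chr6:40628581-40628880 (plus strand, Mgam) and chr3:28697653-28697952 (plus strand, Slc2a2).
Lct: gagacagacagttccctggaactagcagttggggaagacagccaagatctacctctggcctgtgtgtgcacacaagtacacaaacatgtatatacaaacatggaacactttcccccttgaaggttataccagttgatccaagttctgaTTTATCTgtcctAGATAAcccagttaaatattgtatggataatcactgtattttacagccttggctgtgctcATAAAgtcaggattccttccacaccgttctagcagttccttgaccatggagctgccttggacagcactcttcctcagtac
Sis: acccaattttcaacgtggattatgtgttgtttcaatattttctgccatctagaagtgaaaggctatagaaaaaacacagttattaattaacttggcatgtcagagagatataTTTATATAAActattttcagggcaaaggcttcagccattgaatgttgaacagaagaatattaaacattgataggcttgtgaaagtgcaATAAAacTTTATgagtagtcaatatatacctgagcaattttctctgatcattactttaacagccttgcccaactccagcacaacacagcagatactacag
Mgam: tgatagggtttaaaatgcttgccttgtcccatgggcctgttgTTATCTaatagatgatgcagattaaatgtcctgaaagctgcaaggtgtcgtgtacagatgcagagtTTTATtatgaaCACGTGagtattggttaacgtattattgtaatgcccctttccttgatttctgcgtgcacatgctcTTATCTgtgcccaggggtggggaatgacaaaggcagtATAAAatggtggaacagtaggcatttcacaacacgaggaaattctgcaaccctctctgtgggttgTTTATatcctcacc
Slc2a2: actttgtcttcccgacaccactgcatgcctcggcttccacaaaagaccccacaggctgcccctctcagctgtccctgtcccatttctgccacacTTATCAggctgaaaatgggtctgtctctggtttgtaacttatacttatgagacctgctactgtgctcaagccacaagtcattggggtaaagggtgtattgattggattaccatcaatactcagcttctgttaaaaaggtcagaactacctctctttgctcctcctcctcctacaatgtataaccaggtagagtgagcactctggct

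TTTAT was present in the windows of Lct (2 matches), Sis (4) and Mgam (3), and in none of the other 5 members. Of all 32851 RefSeq windows of this length, 40.0% held it. The 3 windows that hold it are also the richest in A and T of the 8, with a GC content of 44.7%, 34.0% and 43.0%, against 48.0% to 65.7% in the other members. A match in Lct starts 30 bases before the transcription start and a match in Mgam 29 bases before it, a place where many promoters carry the A- and T-rich TATA box. In Lct a match at 102 bases before the start overlaps an AGATAA match on the opposite strand. AGATAA had 2 matches each in Lct and Mgam and stands in 11.2% of all windows. TGATAA occurred in the Slc2a2 window alone among the members (9.05% of windows), CACGTG in those of Mgam, Slc5a1 and Khk (7.15%), and AGAACA in that of Slc5a1 (19.0%). CAAAGTCCA had 1 match, in Treh, against 0.475% of windows. These are matches of letters and do not show binding.

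Lct encodes lactase (ENSMUSG00000026354, mm10 chromosome 1, 128284756 to 128328318, minus strand). It had 12372 counts or 813 CPM (798 to 827) in PCI34051+NEC, 926 counts or 84.6 CPM (79.2 to 90.2) in NEC and 3044 counts or 192 CPM (185 to 198) in control. The PCI34051+NEC library was highest and the NEC library lowest, with no overlap of the counting intervals. The level in NEC was 2.26-fold lower than in control (2.10 to 2.44). In PCI34051+NEC it was 9.61-fold higher than in NEC (8.99 to 10.3) and 4.24-fold higher than in control (4.08 to 4.42). Among measured genes, only 0.160% had a larger positive difference of PCI34051+NEC from NEC, and 0.960% had a larger one from control.

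Sis encodes sucrase-isomaltase (ENSMUSG00000027790, chromosome 3, 72888557 to 72967863, minus strand). It had 253 counts or 16.6 CPM (14.6 to 18.8) in PCI34051+NEC, 408 counts or 37.3 CPM (33.7 to 41.1) in NEC and 61 counts or 3.84 CPM (2.94 to 4.93) in control. It was the 1 member that was at least 2-fold higher in NEC than in control, and both formula-fed libraries lay above the dam-fed one. The level in NEC was 9.71-fold higher than in control (7.40 to 12.9), a difference that 1.63% of measured genes exceeded. In PCI34051+NEC it was 2.24-fold lower than in NEC (1.91 to 2.63) and 4.33-fold higher than in control (3.26 to 5.83).

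Mgam encodes maltase-glucoamylase (ENSMUSG00000068587, chromosome 6, 40628831 to 40769123, plus strand). It had 12158 counts or 799 CPM (785 to 813) in PCI34051+NEC, 4967 counts or 454 CPM (441 to 466) in NEC and 6325 counts or 398 CPM (388 to 408) in control. NEC and control lay close together, at a ratio of 1.14 (1.10 to 1.18), and PCI34051+NEC was above both. Its ratio to NEC was 1.76 (1.70 to 1.82) and its ratio to control 2.01 (1.95 to 2.07). The difference from control, 1.003 on the log2 scale, only just reached 2-fold. It was 0.81 with scaling to total counts, 0.97 with scaling to epithelial markers, 0.998 with a pseudocount of 4, 0.997 with all libraries thinned to the shallowest total and 0.81 with the trend of GC content and transcript length removed.

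Treh encodes trehalase (ENSMUSG00000032098, chromosome 9, 44673233 to 44686305, plus strand), an enzyme of the weaned gut. It had 10, 4 and 18 counts in PCI34051+NEC, NEC and control, or 0.657 CPM (0.315 to 1.21), 0.365 CPM (0.0995 to 0.935) and 1.13 CPM (0.671 to 1.79). All 3 intervals overlap, so that differences were barely detectable at this depth. The ratio of NEC to control was 0.323, with an interval of 0.0794 to 0.979. Treh thus did not share the higher level of Sis in the NEC library, although both are known as genes of weaning.

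**Figure D1:**
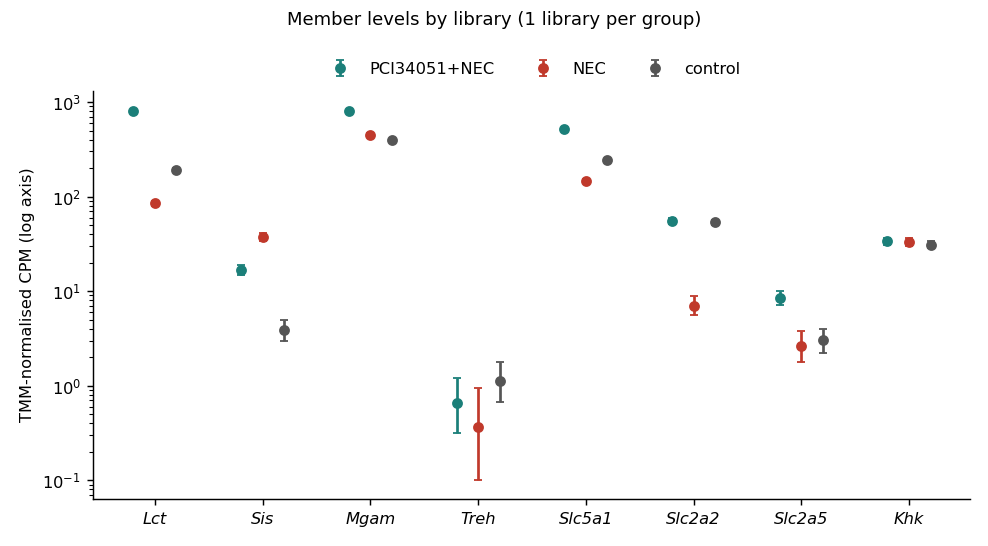
TMM-normalised CPM (log axis) of the 8 genes in the PCI34051+NEC, NEC and control libraries; points are single libraries and bars exact 95% Poisson intervals. Sis is highest in NEC (37.3 CPM), Lct and Slc5a1 are highest in PCI34051+NEC, Slc2a2 is lowest in NEC (7.03 CPM), and Khk lies between 31.1 and 33.7 CPM in all 3.

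Slc5a1, the sodium-coupled carrier of glucose and galactose (ENSMUSG00000011034, chromosome 5, 33104219 to 33162870, plus strand), followed the order of Lct. It had 7812 counts or 513 CPM (502 to 525) in PCI34051+NEC, 1613 counts or 147 CPM (140 to 155) in NEC and 3838 counts or 241 CPM (234 to 249) in control. In NEC it was 1.64-fold lower than in control (1.55 to 1.74), less than 2-fold. In PCI34051+NEC it was 3.48-fold higher than in NEC (3.30 to 3.68) and 2.13-fold higher than in control (2.04 to 2.21). With total counts as the scale the last difference was 0.89 on the log2 scale, under 2-fold.

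Slc2a2, the exit carrier GLUT2 (ENSMUSG00000027690, chromosome 3, 28697903 to 28731359, plus strand), was lower in CPM in the NEC library than in both others. It had 835 counts or 54.9 CPM (51.2 to 58.7) in PCI34051+NEC, 77 counts or 7.03 CPM (5.55 to 8.79) in NEC and 850 counts or 53.5 CPM (49.9 to 57.2) in control. The level in NEC was 7.61-fold lower than in control (6.02 to 9.73), and 1.69% of measured genes had a larger difference in that direction. In PCI34051+NEC it was 7.80-fold higher than in NEC (6.17 to 9.98), and its ratio to control was 1.03 (0.931 to 1.13). Hepatocytes and kidney tubule cells also express Slc2a2 and Khk. The 8 liver markers summed to 213 CPM in PCI34051+NEC, 206 CPM in NEC and 369 CPM in control. All 8 were detected in each library. Their defining member Alb was at 0.394 CPM in PCI34051+NEC, 100.4 CPM in NEC and 9.31 CPM in control, and 7 of the 8 were over 2-fold higher in NEC than in control, while Ttr, the most abundant in sum, was lower. In NEC relative to control, Alb was higher in CPM, Slc2a2 lower and Khk near level (ratio 1.06). The 6 kidney markers summed to 13.9, 7.03 and 44.2 CPM in PCI34051+NEC, NEC and control, of which 13.8, 4.11 and 43.9 CPM were Lrp2, a gene that suckling enterocytes also express. The others ran differently, with Slc34a1 at 0, 14 and 1 counts and Slc5a2 at 2, 17 and 0 counts in PCI34051+NEC, NEC and control. Of the 3 kidney markers measured in NEC against control, 2 passed 2-fold upward. Kap had 0 counts in every library. The part of liver or kidney RNA in the values of Slc2a2 and Khk was not tested.

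Slc2a5, the fructose carrier GLUT5 (ENSMUSG00000028976, chromosome 4, 150119283 to 150144169, plus strand), was low throughout. It had 130 counts or 8.54 CPM (7.14 to 10.1) in PCI34051+NEC, 29 counts or 2.65 CPM (1.77 to 3.80) in NEC and 48 counts or 3.02 CPM (2.23 to 4.00) in control. NEC and control overlapped, and PCI34051+NEC was above both. It was 3.22-fold higher than in NEC (2.14 to 5.00) and 2.83-fold higher than in control (2.02 to 4.02). With a pseudocount of 4 these differences were 0.92 and 0.84 on the log2 scale, under 2-fold.

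Khk (ENSMUSG00000029162, chromosome 5, 30921431 to 30931248, plus strand) varied least among the members. It had 513 counts or 33.7 CPM (30.8 to 36.7) in PCI34051+NEC, 361 counts or 33.0 CPM (29.7 to 36.6) in NEC and 494 counts or 31.1 CPM (28.4 to 33.9) in control. All 3 intervals overlapped. Its ratio of NEC to control was 1.06 (0.924 to 1.22), that of PCI34051+NEC to NEC 1.02 (0.892 to 1.17) and that of PCI34051+NEC to control 1.08 (0.956 to 1.23). The direction of these small differences changed with the processing: NEC minus control was -0.39 on the log2 scale with the trend of GC content and length removed, PCI34051+NEC minus NEC was -1.15 with scaling to epithelial markers, and PCI34051+NEC minus control was -0.07 with scaling to total counts.

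In NEC against control, 1 of the 8 members passed 2-fold upward (Sis) and 2 passed it downward (Lct and Slc2a2). Of all 14627 measured genes, those at 1 CPM or more in either library, 24.2% passed it upward and 22.9% downward, so the members' counts were near the background. Their median log2 difference was -0.39, beside -0.03 over all measured genes. In PCI34051+NEC against NEC, 7 members were measured, Treh being under 1 CPM in both. Of these, 4 passed 2-fold upward (Lct, Slc5a1, Slc2a2 and Slc2a5) and 1 downward (Sis), against 25.0% and 25.6% of 14410 genes. Their median was 1.39, beside 0.0060 over all genes. The 2.26-fold lower level of Lct in NEC than in control was -0.01 on the log2 scale once scaled to epithelial markers. The NEC library enters both comparisons, which ties their values together. In PCI34051+NEC against control, 5 of 8 members passed 2-fold upward (Lct, Sis, Mgam, Slc5a1 and Slc2a5) and 0 downward, against 6.55% of 13652 genes in each direction. Their median of 1.04 stood beside -0.00084 over all genes. That comparison does not use the NEC library, and TMM over the other two libraries alone also put 5 members past 2-fold upward. The count was 3 with total counts, against 4.65% of all genes, and 3 with a pseudocount of 4, against 4.70%. It was 4 with scaling to epithelial markers, with thinning and with the trend of GC content and length removed. Per count of the 10 enterocyte markers described below, no member reached 2-fold upward, and the highest ratio was 1.67 (Sis). Slc2a2 (2.53-fold), Khk (2.40-fold) and Treh (4.48-fold, from 10 and 18 counts) were then over 2-fold lower.

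**Figure D2:**
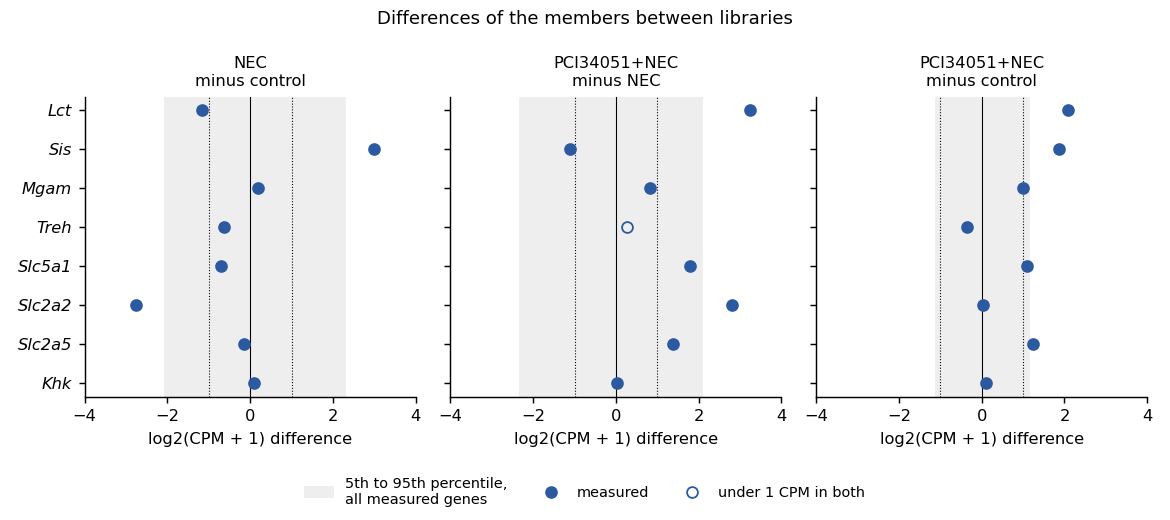
Difference of log2(CPM + 1) for each member in NEC minus control, PCI34051+NEC minus NEC and PCI34051+NEC minus control; the grey band spans the 5th to 95th percentile of all measured genes, dotted lines mark 2-fold and the open circle marks Treh where it was under 1 CPM in both. Sis (2.98) and Slc2a2 (-2.76) lie outside the band in the first panel, Lct (3.25) and Slc2a2 (2.80) in the second, and Lct (2.08), Sis (1.86) and Slc2a5 (1.25) in the third.

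Ratios between members within a library do not depend on scaling between libraries. Sis had 0.0204 counts per count of Lct in PCI34051+NEC (0.0180 to 0.0232), 0.441 in NEC (0.391 to 0.496) and 0.0200 in control (0.0153 to 0.0258). The ratio in NEC was thus 22.0 times that in control (16.6 to 29.5). PCI34051+NEC and control were alike within counting error, at a ratio of ratios of 1.02 (0.766 to 1.38), since Lct and Sis were both about 4-fold higher in PCI34051+NEC than in control. The ratio of Mgam to Lct was 0.983 in PCI34051+NEC, 5.36 in NEC and 2.08 in control, so that all 3 libraries differed. Slc2a2 had 0.107 counts per count of Slc5a1 in PCI34051+NEC, 0.0477 in NEC and 0.221 in control. The ratio of exit to entry carrier was therefore lower than in control in both formula-fed libraries. It was 2.07-fold lower in PCI34051+NEC (1.87 to 2.30) and 4.64-fold lower in NEC (3.64 to 5.98). In CPM, PCI34051+NEC had Slc2a2 level with control (ratio 1.03) and Slc5a1 2.13-fold higher. NEC had Slc2a2 7.61-fold and Slc5a1 1.64-fold lower than control. The ratio of Slc2a5 to Slc5a1 was 0.0166, 0.0180 and 0.0125 in PCI34051+NEC, NEC and control, and all 3 intervals overlapped. Khk had 3.95 counts per count of Slc2a5 in PCI34051+NEC, 12.4 in NEC and 10.3 in control.

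Levels of different genes were compared per length, as TPM computed from the counts and merged exon lengths. In NEC these levels are lowered for nuclear genes by the large mitochondrial share. In PCI34051+NEC, Lct (332 TPM) and Slc5a1 (328 TPM) led with overlapping intervals, followed by Mgam (240 TPM), Khk (49.1 TPM) and Slc2a2 (25.0 TPM). Slc2a5 (6.58 TPM) and Sis (5.83 TPM) overlapped below them, and Treh (0.840 TPM) was last. In NEC, Mgam led (115 TPM), then Slc5a1 (79.4 TPM), Khk (40.6 TPM), Lct (29.2 TPM) and Sis (11.0 TPM). Slc2a2 (2.70 TPM) and Slc2a5 (1.72 TPM) overlapped there, and Treh (0.395 TPM) was again last. In control the order was Slc5a1 (175 TPM), Mgam (136 TPM), Lct (89.0 TPM), Khk (51.5 TPM), and Slc2a2 (27.7 TPM). Slc2a5 (2.64 TPM), Treh (1.65 TPM) and Sis (1.53 TPM) followed with overlapping intervals. Of the summed disaccharidase TPM, Lct made up 57.4% in PCI34051+NEC, 18.7% in NEC and 39.0% in control, and Sis 1.01%, 7.08% and 0.671%. Slc5a1 held 91.2%, 94.7% and 85.2% of the TPM of the 3 transporters in PCI34051+NEC, NEC and control. With the longest transcript as the length, Slc2a5 (5.80 TPM) and Sis (5.98 TPM) changed places in PCI34051+NEC. In control Mgam (148 TPM) then led Slc5a1 (142 TPM), and Sis (1.56 TPM) stood above Treh (1.34 TPM), so these orders depend on the length used.

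**Figure D3:**
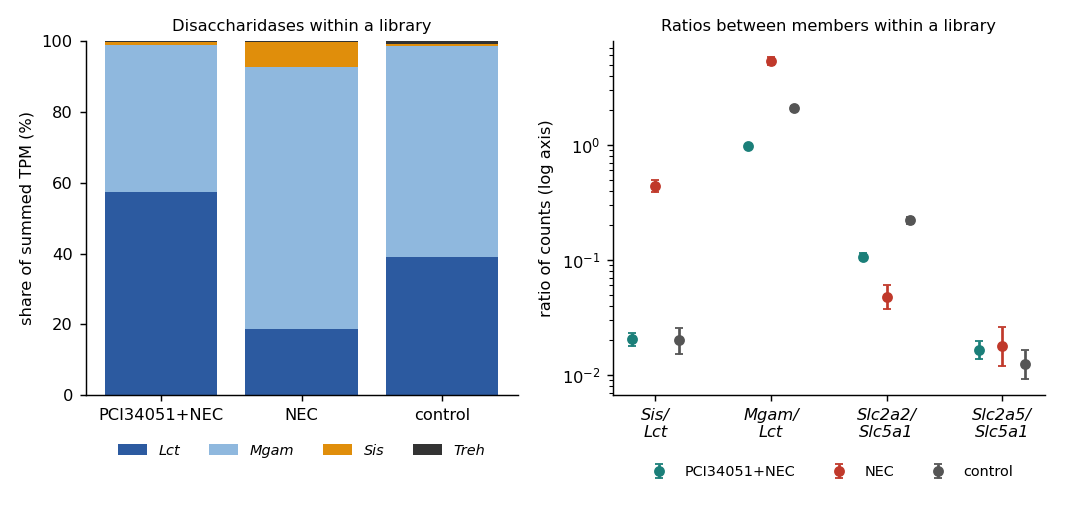
Left, share of the summed TPM of the 4 disaccharidases (%) in each library; right, ratios of counts between members (log axis) with exact 95% intervals. Lct makes up 57.4%, 18.7% and 39.0% in PCI34051+NEC, NEC and control, and the ratio of Sis to Lct is 0.441 in NEC and near 0.02 in the other two.

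Because epithelial RNA differed between libraries, the members were also set against the summed counts of the 10 pan-epithelial markers. The summed markers were 2.25-fold lower in NEC than in control, but they did not move alike: Epcam was at 404 and 2731 CPM in NEC and control, and Krt19 at 638 and 54.2 CPM. Lct then had 109 counts per 1000 marker counts in PCI34051+NEC, 26.2 in NEC and 26.4 in control. Relative to these markers Lct did not differ between NEC and control within counting error, at a ratio of 0.995 (0.924 to 1.07). Sis had 2.23 counts per 1000 in PCI34051+NEC, 11.6 in NEC and 0.528 in control, and stayed highest in NEC. Slc2a2 had 7.36 per 1000 in PCI34051+NEC, 2.18 in NEC and 7.36 in control, so it was still 3.37-fold lower in NEC than in control (2.67 to 4.32). Mgam had 107, 141 and 54.8 per 1000 in PCI34051+NEC, NEC and control, and its difference of PCI34051+NEC from NEC turned to -0.39 on the log2 scale. Khk, flat in CPM, had 4.52, 10.2 and 4.28 per 1000 in PCI34051+NEC, NEC and control, 2.39-fold higher in NEC than in control (2.08 to 2.74). Slc5a1 had 68.9, 45.7 and 33.2 per 1000, and Slc2a5 had 1.15, 0.822 and 0.416. Scaled this way, Slc5a1 and Slc2a5 were no longer 2-fold apart between PCI34051+NEC and NEC, at 0.59 and 0.41 on the log2 scale. How far the share of epithelium sets the CPM differences was not tested.

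**Figure D4:**
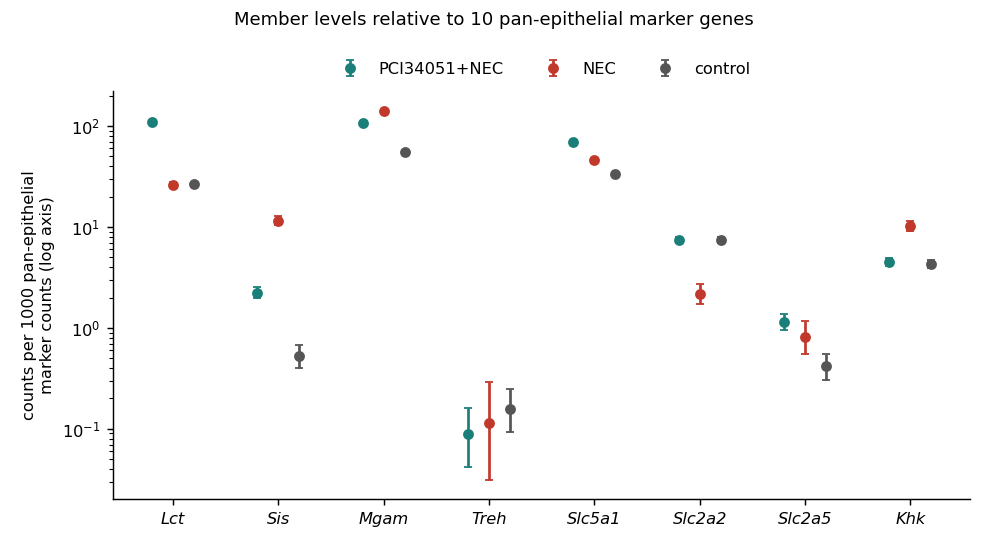
Counts of each member per 1000 summed counts of the 10 pan-epithelial markers (log axis) in the PCI34051+NEC, NEC and control libraries, with exact 95% Poisson intervals on the member's counts. Lct meets in NEC and control (26.2 and 26.4), Sis remains highest in NEC (11.6), and Slc2a2 remains lowest there (2.18).

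The 10 enterocyte markers gave another scale, and summed to 107569 CPM in PCI34051+NEC, 20495 CPM in NEC and 41408 CPM in control. The apolipoprotein genes Apoa4 and Apoa1 made up most of that sum. Apoa4 was at 58772, 9794 and 20142 CPM and Apoa1 at 31024, 6947 and 13701 CPM in PCI34051+NEC, NEC and control. The differences of PCI34051+NEC from the other two libraries depended on this scale. Against NEC, Lct per enterocyte marker count was 1.83-fold higher in PCI34051+NEC (1.71 to 1.96) and Slc2a2 1.49-fold higher (1.18 to 1.90), both under 2-fold. Slc5a1 turned to 1.51-fold lower (1.43 to 1.59), Slc2a5 to 1.63-fold lower (1.05 to 2.45) and Mgam to 2.98-fold lower (2.88 to 3.08), while Sis was 11.8-fold lower (10.03 to 13.8) and Khk 5.13-fold lower (4.48 to 5.89). Against control, Lct was 1.63-fold higher in PCI34051+NEC (1.57 to 1.70) and Sis 1.67-fold higher (1.26 to 2.24), again under 2-fold. Mgam was there 1.29-fold lower (1.26 to 1.33), Slc5a1 1.22-fold lower (1.18 to 1.27), Khk 2.40-fold lower (2.11 to 2.72) and Slc2a2, level with control in CPM, 2.53-fold lower (2.30 to 2.79). In NEC against control, Sis was 19.6-fold higher (14.96 to 26.1), Slc2a2 3.76-fold lower (2.98 to 4.82) and Lct 1.12-fold lower (1.04 to 1.21). In NEC against control, the differences of Sis and Slc2a2 thus passed 2-fold in CPM and per count of either marker sum. Epcam alone differed by -2.75 on the log2 scale in NEC minus control, close to Slc2a2 at -2.76, while Krt19 differed by 3.53. Relative to Epcam, Slc2a2 was therefore nearly level, but Epcam was the lowest of the 10 pan-epithelial markers (median -1.13). Of 10834 genes Epcam was also the nearest to Slc2a2 over the 3 libraries, so this likeness is no separate check. The part of enterocyte RNA in the CPM differences was not tested.

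Other digestive glycosidase genes were few. Salivary-type amylase Amy1 had 81 counts in PCI34051+NEC, 254 in NEC and 29 in control, or 5.32, 23.2 and 1.82 CPM, an order like that of Sis. Amylase genes have near-identical copies, so this value is uncertain. The pancreas markers were near 0, at 6.44, 4.48 and 8.87 CPM in PCI34051+NEC, NEC and control in sum over 8 genes.

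Of the 10 other facilitative glucose transporter genes, 9 were measured in NEC against control. There 2 passed 2-fold upward and 2 downward, around a median of -0.44. Of all measured genes 24.2% passed it upward and 22.9% downward, the background for each list below in that comparison. The background was 25.0% upward and 25.6% downward in PCI34051+NEC against NEC. In PCI34051+NEC against control it was 6.55% each way. Slc2a4, the insulin-responsive carrier of muscle and fat, was at 11.8 CPM in PCI34051+NEC, 107 CPM in NEC and 11.1 CPM in control, which went with the smooth muscle markers above. Slc2a8, an intracellular hexose carrier, was at 65.8, 33.7 and 105 CPM in PCI34051+NEC, NEC and control. Slc2a7, a close relative of Slc2a5, was at 6.83, 4.11 and 1.26 CPM, and was the 1 gene of 8 measured in this list that passed 2-fold upward in PCI34051+NEC against control.

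The sodium-glucose transporter family went both ways. Of 7 measured genes in NEC against control, 3 passed 2-fold upward and 3 downward. In PCI34051+NEC against NEC, 5 of 7 passed it upward and 1 downward (median 1.39), beside 25.0% and 25.6% of all measured genes. Slc5a9, a mannose and glucose carrier, was at 36.2, 10.96 and 46.4 CPM in PCI34051+NEC, NEC and control. Slc5a11, an inositol carrier, was at 53.0, 12.4 and 51.3 CPM in PCI34051+NEC, NEC and control, near the pattern of Slc2a2. Slc5a8, a carrier of short-chain fatty acids and lactate, was at 44.0, 7.03 and 109 CPM in PCI34051+NEC, NEC and control. Slc5a12, its low-affinity relative, had 181 counts in PCI34051+NEC, 43 in NEC and 0 in control. That 0 is reported only as a count, so no fold difference is given for it.

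Enzymes beyond the first step of sugar breakdown were more often lower than higher in NEC, relative to control. Of 7 further fructose genes, 5 passed 2-fold downward in NEC against control and 0 upward (median -1.10). Sord, which makes fructose from sorbitol, was at 437, 65.4 and 434 CPM in PCI34051+NEC, NEC and control. Glyctk, the glycerate kinase, was at 11.7, 4.66 and 44.0 CPM in PCI34051+NEC, NEC and control and did not reach the control level in PCI34051+NEC. Of 7 measured galactose genes, 4 passed 2-fold downward and 2 upward in NEC against control (median -1.53). Galk1, galactokinase, was at 501, 96.6 and 502 CPM, and Galm, the mutarotase that precedes it, at 156, 30.4 and 188 CPM in PCI34051+NEC, NEC and control. Galt, the uridylyltransferase that follows Galk1, was picked after its values were seen and was highest in NEC, at 100.2, 211 and 117 CPM in PCI34051+NEC, NEC and control. Of the 7 galactose genes, 0 were 2-fold apart between PCI34051+NEC and control (median -0.06).

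Brush border peptidases and alkaline phosphatase, which sit beside the disaccharidases, were set beside the members as other genes of that membrane. In NEC against control, 7 of 11 measured genes passed 2-fold downward and 1 upward (median -1.31). In PCI34051+NEC against NEC, 10 of 11 passed it upward (median 2.25), beside 25.0% of all measured genes. In PCI34051+NEC against control, 5 of 11 passed it upward and 0 downward (median 0.97), beside 6.55% of all measured genes each way. Enpep, aminopeptidase A, was at 1273, 203 and 531 CPM in PCI34051+NEC, NEC and control, the order of Lct. Mep1a, a meprin subunit, was at 1112, 179 and 1709 CPM in PCI34051+NEC, NEC and control. Of 12 microvillus structure genes, 1 passed 2-fold upward in that comparison (median 0.14).

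**Figure D5:**
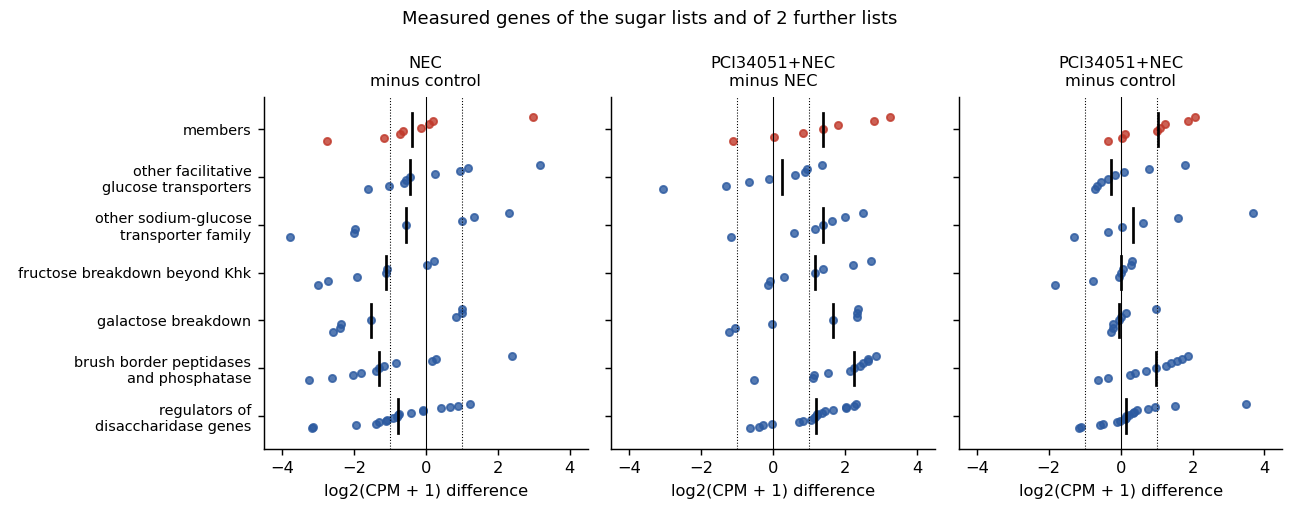
Difference of log2(CPM + 1) of each measured gene in the member list, 4 other sugar lists, the brush border peptidases and the regulators of disaccharidase genes, in NEC minus control, PCI34051+NEC minus NEC and PCI34051+NEC minus control; black bars are list medians and dotted lines 2-fold. In the third panel the medians of the members (1.04) and the peptidases (0.97) lie above those of the fructose and galactose lists (0.0073 and -0.06).

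Of the 18 measured genes that encode known regulators of disaccharidase genes, 7 passed 2-fold downward and 1 upward in NEC against control (median -0.78). In PCI34051+NEC against NEC, 12 of 18 passed it upward and 0 downward, beside 25.0% and 25.6% of all measured genes. Gata4, which activates Lct in the proximal small intestine, was at 46.4 CPM in PCI34051+NEC, 8.95 CPM in NEC and 3.21 CPM in control. Hnf4g, an enterocyte transcription factor, was at 124, 24.7 and 42.7 CPM in PCI34051+NEC, NEC and control, the order of Lct. Prdm1, which in mice restrains the adult enterocyte program during suckling, was at 58.0, 13.6 and 127 CPM in PCI34051+NEC, NEC and control. It was lowest in NEC, where Sis was highest. The NEC minus control difference of Prdm1 was -3.13 on the log2 scale. That of Mep1a was -3.25, the lowest of the 11 measured brush border peptidase and phosphatase genes, whose median was -1.31. In NEC against control, 1 of 6 measured genes of the adult-type enterocyte passed 2-fold upward (Sis) and 1 downward. A link between Prdm1 and Sis was not tested. Factors whose motifs were searched did not share 1 order. Cdx2 was at 213, 77.4 and 299 CPM in PCI34051+NEC, NEC and control, and Hnf4a at 347, 196 and 517 CPM, both highest in control. Cdx1 was at 316, 152 and 162 CPM in PCI34051+NEC, NEC and control, Gata5 at 81.6, 34.4 and 73.2 CPM and Gata6 at 154, 69.1 and 120.4 CPM, all highest in PCI34051+NEC. These 5 genes and Nr3c1 are outside the rule for named genes. Nr3c1, the glucocorticoid receptor gene, was at 103, 31.5 and 78.7 CPM in PCI34051+NEC, NEC and control.

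Of 13 measured genes of the suckling-type enterocyte in PCI34051+NEC against control, 1 (Lct itself) passed 2-fold upward and 3 downward (median -0.36). In NEC against control 12 of 13 passed it downward, Lct among them (median -2.64). Its endocytic and lysosomal genes were not of 1 kind. Lrp2 (13.8, 4.11 and 43.9 CPM in PCI34051+NEC, NEC and control) and Ctsl (1447, 177 and 3848 CPM) were highest in control. Cubn (1108, 355 and 809 CPM in PCI34051+NEC, NEC and control) and Neu1 (2736, 684 and 2070 CPM), added after their values were seen, were highest in PCI34051+NEC. Of genes marking the proximal small intestine, 4 of 7 measured passed 2-fold upward in PCI34051+NEC against control (median 1.46), Lct and Gata4 among them. The share of all measured genes was 6.55%. Fabp1, a fatty acid binding protein, had 5537 counts in PCI34051+NEC, 743 in NEC and 2 in control. Slc40a1 of the same list went the other way, at 578, 53.1 and 997 CPM in PCI34051+NEC, NEC and control. Its difference of PCI34051+NEC from control was -0.78 on the log2 scale. Of 8 ileal genes, 3 passed it upward too, among them the bile acid carrier Slc10a2 with 94, 20 and 4 counts in PCI34051+NEC, NEC and control. The colon genes Car1, Hoxb13, Hoxd13, Hoxa13 and Ly6g6c had 0 counts in every library. The part of the sampled segment in the differences of Lct was not tested.

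The genes nearest to each member were found by the distance between centred log2(CPM + 1) values over the 3 libraries, among genes averaging 5 CPM or more. Nearest to Lct was Hsd17b11, a lipid droplet dehydrogenase, at a distance of 0.202, and it was the 1 gene of 10834 within 0.25. It stood at 993, 123 and 279 CPM in PCI34051+NEC, NEC and control. Nearest to Sis were Peg3, an imprinted zinc finger gene, Slpi, a protease inhibitor, and Acy1, an aminoacylase (0.0755, 0.116 and 0.133), with 10 genes within 0.25. Nearest to Slc2a2 was Epcam (0.00848), an adhesion molecule of all gut epithelium, with 58 genes within 0.25. Mgam lay near Ccdc186 (0.013, with 174 genes within 0.25), Slc5a1 near Ets2 (0.0079, with 162) and Slc2a5 near Jak2 (0.0341, with 112). Khk (755 genes) and Treh (528 genes) had the most neighbours. For Treh, at about 1 CPM, the added 1 CPM compresses the differences that the distance is built on, and its NEC minus control difference was -1.17 on the log2 scale with a pseudocount of 0.25. With 3 libraries such likeness is a description of 3 values. Lct and Sis were far apart, at 3.48, and Mgam and Slc2a5 were the closest pair of members, at 0.406.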

How the data were processed

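The deposited table holds raw read counts by gene symbol for 3 libraries of mouse intestine, 1 per group. Per the labels' protocols, TRIzol-extracted RNA was sequenced on a NovaSeq (paired-end, 150 bp). The submitters' processing notes name mm10. The aligner, annotation, strandedness and filters were not given in the sources used here, and therefore reads of overlapping, antisense or near-identical genes may be shared. Control and NEC columns were matched by name. The third column's name differs by some digits from its sample's description and was assigned as the only one naming an inhibitor.

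TMM factors came from edgeR 4.0.16 under R 4.3.3. Depth of 16497580, 10650638 and 15076413 counts (PCI34051+NEC, NEC, control) makes 3 counts 0.197, 0.274 and 0.189 CPM. Intervals are Poisson for levels and conditional binomial for ratios, and cover counting error only, since reads lacking molecular identifiers can be PCR copies. A gene was measured at 1 CPM in either library and counted at a 2-fold difference of CPM plus 1. Of the symbols, 99.7% matched GENCODE M21, which gave lengths and coordinates. No member shares more than 2 exonic bases with another gene. Promoters are RefSeq's. The procedure was tested on simulated data.

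The alternatives comprised size factors of DESeq2 1.42.0, total counts, TMM without the 50 most abundant and mitochondrially encoded genes, TMM over the 2 libraries compared, scaling to pan-epithelial markers, pseudocounts of 0.25 and 4, no filter, 5 CPM, thinning, a 1.5-fold threshold, and removal of GC and length trends. Members and lists were chosen with earlier results of these data known. Named genes are the members, up to 4 per list whose difference was largest among genes reaching 5 CPM, and up to 3 nearest genes per member, of which those described are printed. Others are said to be chosen afterwards, except markers and those listed at 0. Some genes of the lists and 1 motif are not reported here.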

Additional observations from a re-analysis of the deposited data

How the results depend on the processing

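No paired analysis was possible because each group has 1 library. Scaling to the pan-epithelial markers moved the median of all genes to 1.06 in NEC against control and to -1.08 in PCI34051+NEC against NEC. The members at least 2-fold higher and lower were then 3 and 1 (median 0.75) in NEC against control, where TMM gave 1 and 2, beside 52.0% and 5.69% of all genes. They were 2 and 2 (median 0.41) in PCI34051+NEC against NEC, where TMM gave 4 and 1, beside 4.75% and 52.9% of all genes. A 1.5-fold threshold gave 4 members lower in NEC than in control, beside 34.2% of all genes. For PCI34051+NEC against control, 3 members were at least 2-fold higher with total counts (median 0.85, all genes -0.18) and 3 with a pseudocount of 4. The count was 4 with pan-epithelial scaling, with thinning and with GC and length trends removed. Per enterocyte marker count no member was 2-fold higher in that comparison. The difference of Slc5a1 in that comparison, positive per pan-epithelial marker count, was -0.29 per enterocyte marker count. The causes were not tested. Lct and Sis, in both comparisons with PCI34051+NEC, and Slc2a2, in both with NEC, kept their direction and stayed at least 2-fold apart under the 9 alternatives of scaling, pseudocount, thinning and GC content run on CPM. So did Sis in NEC against control. Per enterocyte marker count, several of these ended: Lct was 0.87 (log2) in PCI34051+NEC against NEC and 0.71 against control, Sis 0.74 against control and Slc2a2 0.57 in PCI34051+NEC against NEC. With 1 library per group the spread between animals is unknown. Depth limits Treh, at 4 to 18 counts.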

Other observations

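Genes of glucose release and entry in the enterocyte were more often lower than higher in NEC, relative to control, as the fructose and galactose lists were. Of 9 measured genes, 5 passed 2-fold downward and 3 upward in NEC against control (median -1.45). Fbp1, a gluconeogenic phosphatase, was at 253 CPM in PCI34051+NEC, 35.8 CPM in NEC and 604 CPM in control. G6pc, which frees glucose from its phosphate, was at 72.1, 18.5 and 149.7 CPM, and Pklr, the pyruvate kinase of liver and gut, at 292, 59.5 and 421 CPM in PCI34051+NEC, NEC and control. Both G6pc and Fbp1 were past 2-fold lower in PCI34051+NEC than in control, while Slc37a4, which carries glucose 6-phosphate to G6pc, was at 234, 51.6 and 177 CPM in PCI34051+NEC, NEC and control. Hk1, the general hexokinase, was at 9.20, 34.1 and 10.2 CPM in PCI34051+NEC, NEC and control, and was named after its values were seen.

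Of 6 regulators tied to fructose and glucose sensing, 1 passed 2-fold upward and 2 downward in NEC against control. Over all measured genes the shares were 24.2% and 22.9%. Mlxipl, the carbohydrate-sensing factor ChREBP that is needed for fructose tolerance in mice, was at 21.5, 76.5 and 26.5 CPM in PCI34051+NEC, NEC and control. Its binding partner Mlx was at 48.5, 14.7 and 62.8 CPM in PCI34051+NEC, NEC and control, the opposite order for NEC. Rab11a, which serves the recycling of Slc2a5 to the membrane, was at 456, 116 and 653 CPM in PCI34051+NEC, NEC and control.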
